A study of Mus musculus with 12 samples.

Results

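The data described here are the levels of 10 Toll-like receptor genes of the mouse, Tlr1 to Tlr9 and Tlr13, among 22180 genes measured on 12 single-channel arrays of mouse primary macrophages. The members were taken by name, each was read by 1 probe set annotated to it alone, and all 10 were measured and tested. The arrays form 4 groups of 3: Cd36 knockout (KO) tumour-associated macrophages (TAMs), KO macrophages, wild-type (WT) TAMs and WT macrophages. TAMs were macrophages kept for 72 h with 5TGM1, a mouse multiple myeloma cell line, and the macrophages were the same kind of cell without it. The labels record no culture time for the macrophages, so a difference between TAMs and macrophages may include time in culture. They give neither the allele of the knockout, nor the tissue the macrophages came from, nor the strain, age or sex of the mice, nor how far the macrophages were separated from the myeloma cells. Levels are log2 intensities, which set a gene against itself across arrays and not against another gene.

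Toll-like receptors are membrane proteins with a leucine-rich ectodomain that binds microbial or damage-derived molecules and a cytosolic TIR domain that recruits the adaptors Myd88, Tirap, Ticam1 and Ticam2. Tlr1, Tlr2, Tlr4, Tlr5 and Tlr6 act mainly at the cell surface on lipoproteins, lipopolysaccharide and flagellin, and Cd36 is known to deliver diacylated lipoproteins to the pair of Tlr2 and Tlr6. Tlr3, Tlr7, Tlr8, Tlr9 and Tlr13 sit in endosomes, which they reach with the chaperone Unc93b1 and where several are cut by cathepsins before they respond to nucleic acids. In macrophages these receptors drive NF-kappaB and interferon-regulatory factors, and with them cytokine and chemokine genes.

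The arrays were first set against their labels. Cd36 read 8.45, 9.66 and 8.64 in KO TAMs, 8.79, 8.63 and 8.78 in KO macrophages, 12.14, 12.53 and 12.29 in WT TAMs and 12.10, 12.13 and 12.15 in WT macrophages, so every KO array lay below every WT array. Of 7 measured macrophage markers, Adgre1 read 12.16 to 12.83, Cd68 12.05 to 13.07 and the scavenger receptor gene Cd163 4.94 to 5.91 over the 12 arrays. These markers moved between groups too: 3 rose and 1 fell in KO TAMs, with Fcgr1 up by 1.4 ± 0.08 and Csf1r by 0.84 ± 0.19. The Csf1r call was lost without any 1 KO macrophage array (limma, adjusted p up to 0.075). In WT TAMs 1 rose and 2 fell, with a difference of -0.52 ± 0.11 for Adgre1. Between KO and WT macrophages 1 was lower, Fcgr1 at -1.0 ± 0.08. The part of these differences in the receptor values was not tested. Xist, which coats the X chromosome that is silenced, was at 3.91 to 4.35 on the KO arrays and at 11.08 to 11.32 on the WT arrays. The Y-linked gene Uty read 9.71 to 9.99 on KO and 3.27 to 3.91 on WT arrays. The WT arrays thus read as female cells and the KO arrays as male cells, though the labels give no sex. Genotype cannot be told apart from this X and Y pattern in any KO against WT value. This bears most directly on Tlr7, Tlr8 and Tlr13 on the X chromosome. KO TAM array 1 lay more than 1 log2 unit from the mean of the other KO TAM arrays in 550 genes and KO TAM array 3 in 303. By the same measure WT TAM array 2 stood apart in 414 genes and WT TAM array 1 in 113, the other TAM arrays in 56 and 88, and each macrophage array in 4 to 12. Results that rest on those arrays are given with and without them.

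Here a call means a limma p under 0.05 after Benjamini-Hochberg adjustment across all 22180 genes, rose and fell are used of called genes alone, and differences carry the standard error of that fit with 3 arrays per group. In KO TAMs against KO macrophages, 4 of the 10 receptor genes were called, against a background of 6.53% of all genes (2.9% higher and 3.63% lower): Tlr3, Tlr4, Tlr8 and Tlr13 rose and no member fell. In WT TAMs against WT macrophages, 6 of 10 were called, against 11.5% of all genes (5.89% higher and 5.66% lower): Tlr3, Tlr4, Tlr7 and Tlr13 rose, while Tlr1 and Tlr9 fell. Between genotypes, 7 of 10 were called in KO TAMs against WT TAMs, where 12.2% of all genes were called, with Tlr1, Tlr2, Tlr6, Tlr7, Tlr8 and Tlr9 higher (5.03% of all genes) and Tlr13 lower (7.19%). In KO against WT macrophages Tlr7 alone was higher and no member was lower, where 11.3% of all genes were called, 5.19% higher and 6.13% lower. With the spread taken from the compared groups alone, none of the 7 calls between TAM groups held (adjusted p = 0.054 to 0.19), 1 of the 4 KO co-culture calls held, that of Tlr3, and Tlr1, Tlr2, Tlr4, Tlr6, Tlr7 and Tlr9 were called between macrophages. All 10 members had a mean level above that of 55.4% or more of all genes. With genes under the median level left out, 2050 genes were called in KO co-culture and 2972 in WT co-culture. Between genotypes that filter gave 3050 calls in TAMs and 2986 in macrophages. Each is more calls among fewer genes, so the shares over all genes understate those of genes at like levels. The members called in these 4 comparisons were then 5, 7, 7 and 3. The arrays are bulk samples, in which fewer cells of a type and less RNA per cell cannot be told apart.

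**Figure D1:**
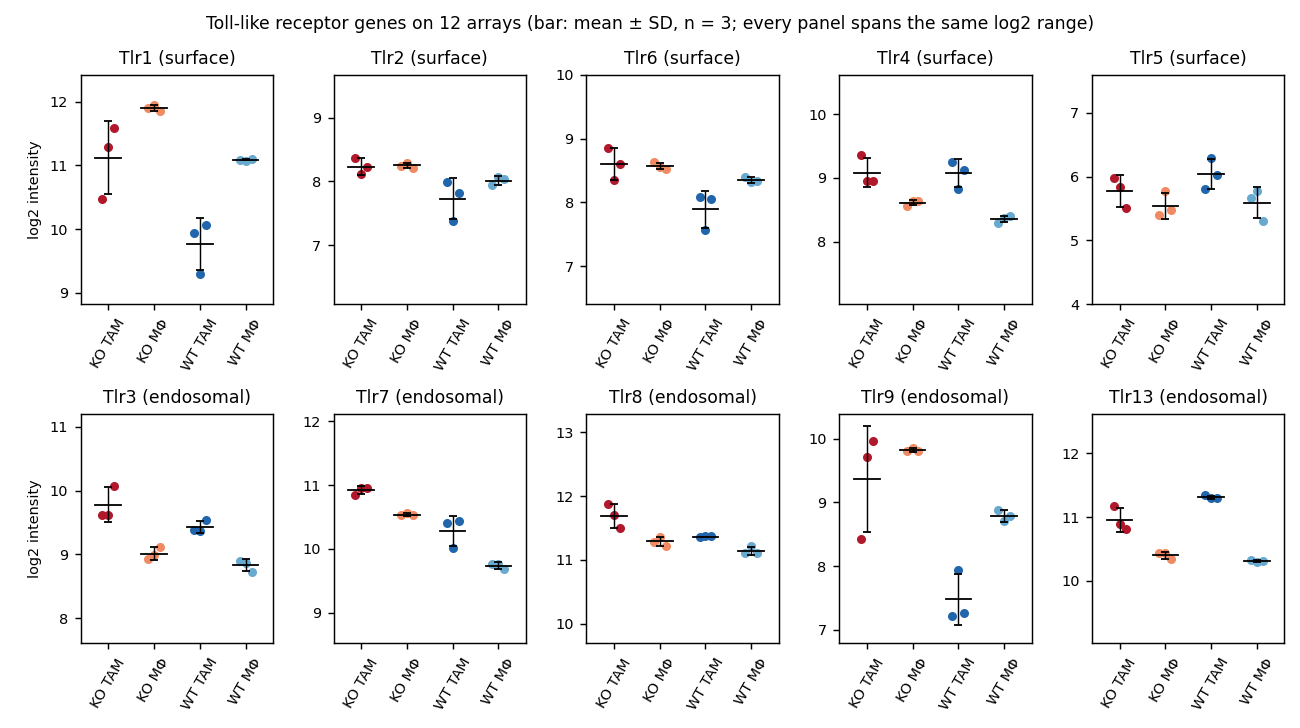
log2 intensity of the 10 receptor genes on each of the 12 arrays, with the mean and SD of 3 arrays per group; every panel spans the same log2 range. Tlr1 and Tlr9 are lowest in WT TAMs, Tlr13 is highest in WT TAMs, and the KO TAM arrays of Tlr9 reach from 8.42 to 9.96.

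**Figure D2:**
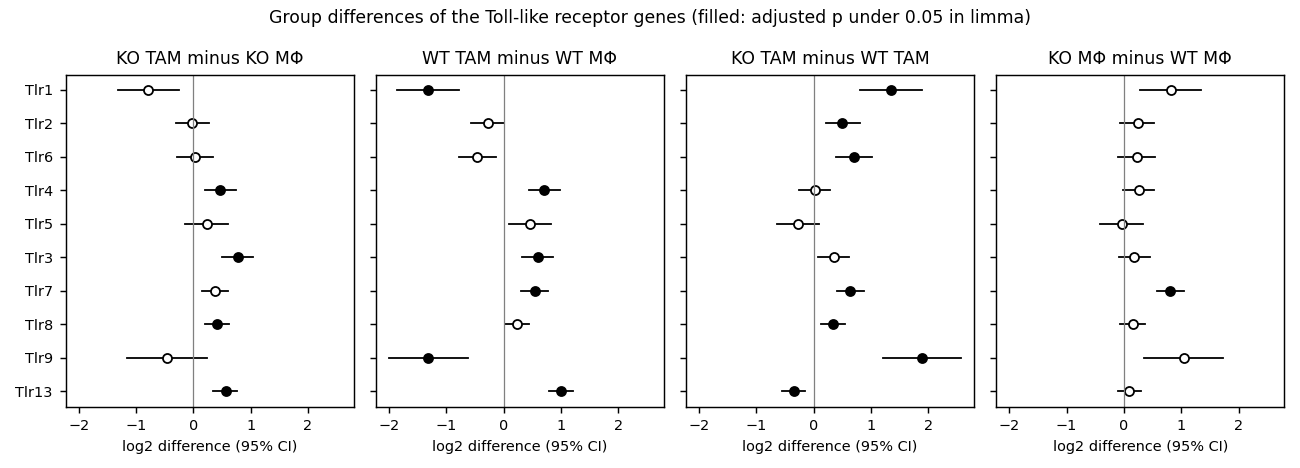
Group differences of each receptor gene on the log2 scale with 95% confidence intervals; filled points passed an adjusted p under 0.05. In both co-culture panels the points of Tlr3, Tlr4 and Tlr13 are filled to the right of 0, and those of Tlr1 and Tlr9 are filled to the left in WT cells only.

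Promoters are shown for Tlr9 and Tlr1, which had the widest ranges of the 4 group means (2.35 and 2.13), and for Tlr13, which rose in TAMs of both genotypes. The sequences are RefSeq promoter windows of assembly GRCm38.p6, printed 5′ to 3′ on the gene's own strand and only up to the first annotated start, at chr9:106222348-106222597 on the plus strand for Tlr9, chr5:64933601-64933808 on the minus strand for Tlr1 and chrX:106143025-106143274 on the plus strand for Tlr13. Capitals mark GAGGAA, the core bound by PU.1, a transcription factor of macrophages.
Tlr9: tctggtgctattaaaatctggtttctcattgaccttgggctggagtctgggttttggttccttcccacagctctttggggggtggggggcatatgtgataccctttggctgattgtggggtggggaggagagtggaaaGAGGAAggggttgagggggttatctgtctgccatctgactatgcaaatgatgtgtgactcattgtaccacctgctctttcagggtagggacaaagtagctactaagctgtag
Tlr1: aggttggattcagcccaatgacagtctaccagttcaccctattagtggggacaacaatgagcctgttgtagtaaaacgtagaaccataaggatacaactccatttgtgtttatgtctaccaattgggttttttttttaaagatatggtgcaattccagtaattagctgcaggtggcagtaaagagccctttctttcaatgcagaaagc
Tlr13: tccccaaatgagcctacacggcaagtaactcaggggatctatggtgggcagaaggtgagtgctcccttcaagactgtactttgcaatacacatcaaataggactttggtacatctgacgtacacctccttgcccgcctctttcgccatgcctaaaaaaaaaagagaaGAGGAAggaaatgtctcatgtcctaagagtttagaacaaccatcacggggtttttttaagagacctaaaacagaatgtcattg
Over full windows of 250 bases before and 50 after a start, the table held 10 windows for 8 of the 10 genes, with Tlr4 and Tlr7 not in it. GAGGAA, searched on both strands, was in 4 of the 10 windows, those of Tlr8, Tlr9, Tlr13 and 1 of Tlr1 (there outside the printed bases), and in 28.3% of all 32851 windows. The AP-1 motif TGANTCA was found in the Tlr9 window and in 7.8% of all windows. The interferon-stimulated response element was in a Tlr6 window as a pair of overlapping matches and in 3.4% of all windows, and the E-box CACGTG in the other Tlr1 window and in 7.2%. These matches are letters in a window and were not set against binding.

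Among the surface receptors, Tlr1, which pairs with Tlr2 on triacylated lipoproteins, had the widest range. It read 10.47, 11.29 and 11.58 in KO TAMs, 11.90, 11.95 and 11.86 in KO macrophages, 9.94, 9.30 and 10.07 in WT TAMs and 11.09, 11.07 and 11.10 in WT macrophages. Every TAM array lay below every macrophage array of its genotype, and every KO TAM array above every WT TAM array. In WT TAMs Tlr1 fell by 1.31 ± 0.25 (2.49-fold, adjusted p = 0.0047), a call that held under all 21 alternatives. The KO co-culture difference of -0.79 ± 0.25 was not called (adjusted p = 0.084), but was with WT TAM 2 or KO TAM 3 left out. KO TAMs were higher than WT TAMs by 1.34 ± 0.25 (2.54-fold, adjusted p = 0.0043). KO macrophages differed from WT macrophages by 0.82 ± 0.25, which missed the threshold (adjusted p = 0.054). That difference was called with KO TAM 1, KO TAM 3 or WT TAM 2 left out, and with the macrophage groups fitted alone. The main fit took its spread from TAM and macrophage arrays together. The SD of Tlr1 was 0.57 in KO TAMs and 0.41 in WT TAMs, but 0.04 in KO macrophages and 0.01 in WT macrophages.

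Tlr2 and Tlr6 had narrower ranges. Tlr2 had 8.37, 8.11 and 8.22 in KO TAMs, 8.24, 8.29 and 8.21 in KO macrophages, 7.99, 7.38 and 7.82 in WT TAMs and 7.94, 8.07 and 8.03 in WT macrophages. Tlr6, the other partner of Tlr2, had 8.85, 8.35 and 8.6 in KO TAMs, 8.63, 8.56 and 8.52 in KO macrophages, 8.08, 7.56 and 8.05 in WT TAMs and 8.39, 8.32 and 8.34 in WT macrophages. The WT TAM arrays lay below all 3 KO TAM arrays for both genes, with WT TAM 2 lowest. KO TAMs were higher than WT TAMs by 0.50 ± 0.13 for Tlr2 (1.41-fold, adjusted p = 0.031) and by 0.70 ± 0.15 for Tlr6 (1.63-fold, adjusted p = 0.0086). The call on Tlr2 ended without WT TAM 2 (0.32, adjusted p = 0.059), WT TAM 3, KO TAM 1 or KO TAM 3, with an adjusted p of up to 0.075, while that on Tlr6 held without each array in turn. Neither gene was called in co-culture. The Tlr2 difference was -0.02 in KO (adjusted p = 0.97) and -0.28 ± 0.13 in WT (adjusted p = 0.24). The Tlr6 difference was 0.03 in KO (adjusted p = 0.94) and -0.46 ± 0.15 in WT (adjusted p = 0.068), and the WT value passed without KO TAM 1 (adjusted p = 0.036).

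Tlr4, the receptor for lipopolysaccharide, rose in TAMs of both genotypes. It read 9.35, 8.95 and 8.95 in KO TAMs, 8.56, 8.64 and 8.63 in KO macrophages, 9.25, 8.83 and 9.12 in WT TAMs and 8.29, 8.37 and 8.40 in WT macrophages, with no overlap between TAMs and macrophages of a genotype. The rise was 0.47 ± 0.13 in KO (1.39-fold, adjusted p = 0.046) and 0.71 ± 0.13 in WT (1.64-fold, adjusted p = 0.0033). The WT call held under all 21 alternatives, and the KO call under 9, being lost without any 1 of WT TAM 3, KO TAM 1, KO TAM 2 or any macrophage array (adjusted p up to 0.14). Tlr4 in KO TAMs and WT TAMs differed by 0.02, with a 95% interval of -0.26 to 0.29. Tlr5, the flagellin receptor, read 5.50 to 5.97 in KO TAMs, 5.39 to 5.77 in KO macrophages, 5.81 to 6.29 in WT TAMs and 5.31 to 5.78 in WT macrophages. It was called in none of the comparisons, the nearest being a difference of 0.46 ± 0.17 between WT TAMs and WT macrophages (adjusted p = 0.12).

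Of the endosomal receptors, Tlr9, which binds unmethylated CpG DNA, had the widest range and the most uneven replicates. Its levels were 8.42, 9.71 and 9.96 in KO TAMs, 9.81, 9.85 and 9.81 in KO macrophages, 7.22, 7.94 and 7.27 in WT TAMs and 8.88, 8.71 and 8.78 in WT macrophages. KO TAM 1 lay more than 1 log2 unit below the other KO TAM arrays, which reached the level of KO macrophages, and all WT TAM arrays lay below every other array. In WT TAMs Tlr9 fell by 1.31 ± 0.32 (2.48-fold, adjusted p = 0.019). That call ended without WT TAM 1 (-1.18, adjusted p = 0.072), WT TAM 3 (-1.21, adjusted p = 0.067) or any WT macrophage array (adjusted p of 0.051 to 0.071). The KO co-culture difference of -0.46 ± 0.32 was not called (adjusted p = 0.48) and was 0.01 without KO TAM 1. KO TAMs exceeded WT TAMs by 1.89 ± 0.32, or 3.7-fold (adjusted p = 0.0026), the largest difference of any member in the 4 pairwise comparisons. In macrophages the KO minus WT difference of 1.04 ± 0.32 missed the threshold (adjusted p = 0.055), although every KO macrophage array lay above every WT macrophage array. It passed with KO TAM 1, KO TAM 3 or WT TAM 2 left out, and with the macrophage groups fitted alone. The SD of Tlr9 was 0.83 in KO TAMs and 0.4 in WT TAMs, but 0.03 in KO macrophages and 0.09 in WT macrophages.

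Tlr3, a receptor for double-stranded RNA that signals through Ticam1, rose in both genotypes. Its levels were 9.62, 9.62 and 10.08 in KO TAMs, 8.92, 8.99 and 9.12 in KO macrophages, 9.38, 9.37 and 9.54 in WT TAMs and 8.89, 8.86 and 8.73 in WT macrophages. All TAM arrays thus lay above all macrophage arrays. The rise was 0.77 ± 0.12 in KO (1.7-fold, adjusted p = 0.0039) and 0.60 ± 0.12 in WT (1.52-fold, adjusted p = 0.0079), and both calls held under all 21 alternatives. The genotypes differed by 0.35 in TAMs (adjusted p = 0.094) and by 0.18 in macrophages (adjusted p = 0.40). Without KO TAM 1 the TAM difference passed (adjusted p = 0.047).

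Tlr13, the mouse receptor for bacterial ribosomal RNA, gave the member call with the lowest p. It read 11.18, 10.89 and 10.81 in KO TAMs, 10.43, 10.43 and 10.35 in KO macrophages, 11.34, 11.30 and 11.30 in WT TAMs and 10.32, 10.30 and 10.31 in WT macrophages. Again every TAM array lay above every macrophage array, and every KO TAM array lay below every WT TAM array. Tlr13 rose by 0.56 ± 0.09 in KO (1.47-fold, adjusted p = 0.0052) and by 1.0 ± 0.09 in WT (2.0-fold, adjusted p = 8.6e-05), and neither call was lost without any 1 array, though the KO one was lost with the KO arrays fitted alone (adjusted p = 0.057). It was the only member lower in KO TAMs than in WT TAMs at the threshold, by -0.35 ± 0.09 (1.28-fold, adjusted p = 0.03). Without KO TAM 2 or 3, or any WT TAM array, that difference was -0.28 to -0.36 and its adjusted p 0.051 to 0.11. In macrophages the genotypes differed by 0.09 (adjusted p = 0.6).

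Tlr7 and Tlr8 are neighbours on the X chromosome with 0 protein-coding genes between them, as Tlr1 and Tlr6 are on chromosome 5. Tlr7, which binds single-stranded RNA, read 10.85, 10.96 and 10.95 in KO TAMs, 10.53, 10.57 and 10.53 in KO macrophages, 10.40, 10.01 and 10.44 in WT TAMs and 9.77, 9.76 and 9.68 in WT macrophages. Tlr8, whose human counterpart senses RNA breakdown products, read 11.88, 11.70 and 11.50 in KO TAMs, 11.28, 11.36 and 11.22 in KO macrophages, 11.36, 11.37 and 11.37 in WT TAMs and 11.11, 11.21 and 11.10 in WT macrophages. For Tlr7 the 4 groups lay in separate ranges, in the order KO TAMs, KO macrophages, WT TAMs and WT macrophages, while for Tlr8 KO macrophages touched neither KO TAMs nor WT macrophages. Tlr7 was the only member called between the macrophage groups, higher by 0.81 ± 0.11 in KO (1.75-fold, adjusted p = 0.0009) under all 21 alternatives. In TAMs the KO exceeded the WT by 0.64 ± 0.11 (1.56-fold, adjusted p = 0.0025). Its co-culture difference was 0.38 ± 0.11 in KO (adjusted p = 0.057, or 0.0084 without WT TAM 2) and 0.54 ± 0.11 in WT (1.46-fold, adjusted p = 0.0062). Tlr8 rose by 0.41 ± 0.10 in KO TAMs (1.33-fold, adjusted p = 0.027), a call lost without KO TAM 1, KO TAM 2 or any KO macrophage array (adjusted p up to 0.1). In WT TAMs its difference of 0.23 ± 0.10 was not called (adjusted p = 0.18). KO TAMs were higher in Tlr8 than WT TAMs by 0.33 ± 0.10 (1.26-fold, adjusted p = 0.045), and that call was lost without any 1 of 11 arrays (adjusted p up to 0.12), holding only without KO TAM 3.

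By location, 1 of 5 surface genes rose and 0 fell in KO TAMs, and 1 rose and 1 fell in WT TAMs, with median differences of 0.03 and -0.28. Of the 5 endosomal genes, 3 rose and 0 fell in KO TAMs, and 3 rose and 1 fell in WT TAMs, with medians of 0.41 and 0.54. The 3 X-linked endosomal genes had medians of 0.41 in KO TAMs and 0.54 in WT TAMs. The 2 autosomal ones, Tlr3 and Tlr9, had medians of 0.15 and -0.35. The median over all 22180 genes was -0.01 in KO TAMs and 0.01 in WT TAMs. Of all genes 2.9% rose and 3.63% fell in KO TAMs, and 5.89% rose and 5.66% fell in WT TAMs. Groups of arrays did not overlap for 6 of the 10 genes in KO TAMs against KO macrophages, where 26.3% of all genes did so, and for 9 of 10 in WT (30.1%). Between genotypes they did not overlap for 8 of 10 in TAMs (24.6%) and for 9 of 10 in macrophages (38.5%), and the KO mean was the higher one for 8 of 10 in TAMs and 9 of 10 in macrophages. The median KO minus WT difference of the 10 genes was 0.42 in TAMs and 0.23 in macrophages, against 0.02 and 0.04 over all genes.

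The interaction takes the co-culture difference in KO cells and subtracts that in WT cells. In limma it was called for 0 of the 10 genes, against 0.194% of all genes (0.104% higher and 0.0902% lower). At an unadjusted p under 0.05 it held 2 of the 10 genes and 2130 of all genes. Its lowest adjusted p was 0.26, for Tlr13, at -0.45 ± 0.13 with a 95% interval of -0.74 to -0.16, and its largest value was that of Tlr9, at 0.85 ± 0.45 with an interval of -0.12 to 1.82 (adjusted p = 0.59). Without KO TAM 1 both passed, at -0.55 for Tlr13 (adjusted p = 0.02) and 1.32 for Tlr9 (adjusted p = 0.021). Without KO TAM 1 and WT TAM 2 the called genes were Tlr9 (1.55, adjusted p = 0.00016), Tlr13 (-0.56, adjusted p = 0.0099), Tlr1 (0.85, adjusted p = 0.024) and Tlr4 (-0.49, adjusted p = 0.024).

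Markers of other cell types were read beside these values. The mean level of the 7 measured B cell markers was 4.18 to 4.58 on KO TAM arrays, 4.59 to 4.68 on KO macrophage arrays, 4.09 to 4.28 on WT TAM arrays and 4.49 to 4.55 on WT macrophage arrays, and of the defining markers Ms4a1 read 3.31 to 3.6, Cd79a 3.8 to 4.34 and Pax5 4.03 to 4.48 over the 12 arrays. Cd79b, a B cell receptor subunit, was the 1 member of that list called, with 6.13, 8.30 and 8.17 in KO TAMs, 9.04, 9.16 and 9.11 in KO macrophages, 5.77, 6.51 and 5.83 in WT TAMs and 7.83, 7.96 and 7.77 in WT macrophages. It fell by 1.82 ± 0.44 in WT TAMs (adjusted p = 0.019) and was higher in KO TAMs than in WT TAMs by 1.5 ± 0.44 (adjusted p = 0.044), the same directions as Tlr9 and Tlr1. The WT call was lost without any 1 of 5 arrays (adjusted p up to 0.068) and the genotype call without any 1 of 10 (up to 0.17). The 11 measured plasma cell or myeloma markers averaged 6.19 to 6.52 on KO TAM arrays, 6.39 to 6.54 on KO macrophage arrays, 6.01 to 6.30 on WT TAM arrays and 6.65 to 6.69 on WT macrophage arrays, with 0 higher and 1 lower in KO TAMs and 0 higher and 3 lower in WT TAMs. Between genotypes 1 was higher and 0 lower in KO TAMs, and 0 were higher and 2 lower in KO macrophages, and the plasma cell gene Jchain was at 3.28 to 3.84 on all arrays. Fcrl5 of that list read 5.41, 9.95 and 10.18 in KO TAMs, 10.69, 10.75 and 10.65 in KO macrophages, 4.64, 7.19 and 5.24 in WT TAMs and 10.22, 10.17 and 9.94 in WT macrophages. Cd79b and Fcrl5 thus had their lowest KO TAM level on KO TAM 1 and their highest WT TAM level on WT TAM 2, as Tlr9 did, whereas Tlr1 had its lowest WT TAM level on WT TAM 2, and the part of such cells or of those arrays in the Tlr9 and Tlr1 values was not tested. Stromal, endothelial and epithelial markers, 12 in all, averaged 5.44 to 6.04 in KO TAMs, 5.12 to 5.19 in KO macrophages, 6.32 to 6.79 in WT TAMs and 5.83 to 5.91 in WT macrophages, with 2 called higher in KO TAMs and 3 in WT TAMs. Between genotypes 0 of them were higher and 5 lower in KO TAMs against WT TAMs, and 0 were higher and 3 lower in KO against WT macrophages. The collagen gene Col1a1 differed by -2.32 ± 0.47 in TAMs (adjusted p = 0.0079) and by -2.56 ± 0.47 in macrophages (adjusted p = 0.0051), and Col1a2 by -2.39 ± 0.39 (adjusted p = 0.0023) in TAMs and -2.74 ± 0.39 (adjusted p = 0.0012) in macrophages, the TAM calls being lost with those groups fitted alone. Of the 7 measured T or NK cell markers, which averaged 4.58 to 4.82 in KO TAMs, 4.4 to 4.59 in KO macrophages, 4.24 to 4.48 in WT TAMs and 4.09 to 4.19 in WT macrophages, Cd4 was the 1 called. It was higher in KO than in WT cells, by 2.06 ± 0.31 in TAMs and by 2.14 ± 0.31 in macrophages (adjusted p = 0.0013 each), and rose by 1.11 ± 0.31 in WT TAMs (adjusted p = 0.036, lost without any 1 of 8 arrays). The dendritic cell list held 1 fall in KO TAMs, 1 in WT TAMs and 1 gene with a higher level in KO macrophages, against WT macrophages. The neutrophil list held 0 calls. The part of these marker genes in the receptor values was not tested either.

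**Figure D3:**
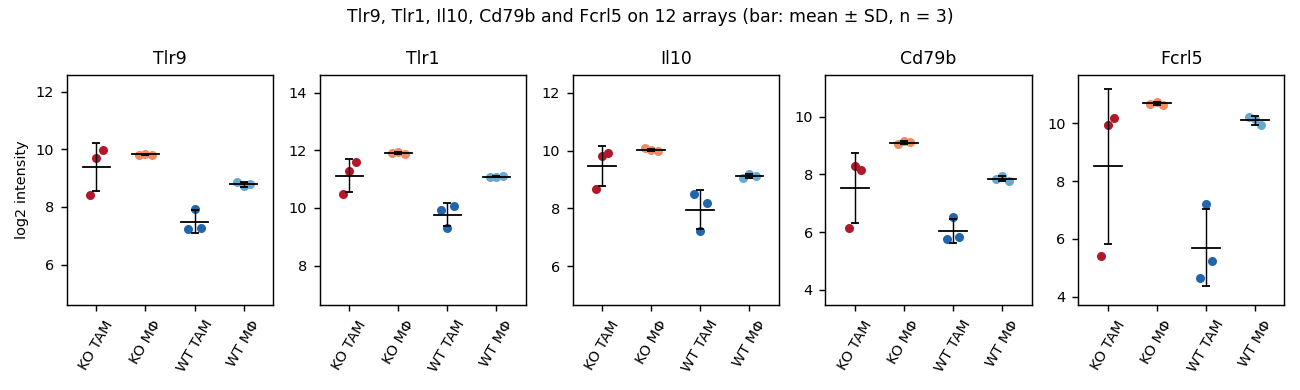
log2 intensity of Tlr9, Tlr1, Il10, Cd79b and Fcrl5 on each array, with the mean and SD of 3 arrays per group; the panels span the same log2 range. In all 5 genes KO TAM 1 is the lowest KO TAM array, and WT TAMs lie below WT macrophages.

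The genes whose pattern over the 12 arrays lay nearest to a member were found by the root mean square of the log2 difference, after each gene was centred on its own mean. For Tlr9 they were Cep85l (0.24), Sik1 (0.25) and Znrf2 (0.30). For Tlr1 they were Il10 (0.20), Mtr (0.23) and Fgd2 (0.23). Il10, an anti-inflammatory cytokine, averaged 9.47 ± 0.70 in KO TAMs, 10.03 ± 0.04 in KO macrophages, 7.96 ± 0.68 in WT TAMs and 9.12 ± 0.06 in WT macrophages (SD). For Tlr7 they were Clec2d (0.13), Dennd1b (0.14) and Il15 (0.14), with Il15, a cytokine, at 8.90 ± 0.19 in KO TAMs, 8.48 ± 0.08 in KO macrophages, 8.01 ± 0.11 in WT TAMs and 7.59 ± 0.09 in WT macrophages.

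The rest of the pathway was read from lists of 134 genes written from textbook knowledge, with earlier results of these data known. Of these genes 125 were measured. Irak4, Traf3, Chuk, Nfkb1, Irf5, Il1rl1 and Lyn were not analysed here, and the other 2 symbols not found were older names of Sting1 and Cgas, which were measured. In KO TAMs 17 of the 125 rose and 4 fell, where 2.9% of all genes rose and 3.63% fell. In WT TAMs 16 rose and 29 fell (5.89% and 5.66% of all genes). In KO TAMs against WT TAMs 23 were higher and 6 lower (5.03% and 7.19% of all genes). In KO against WT macrophages 10 were higher and 9 lower (5.19% and 6.13% of all genes). The counts of each list below stand beside these same shares, which are over genes of all levels, low ones included. List counts moved when arrays were left out in turn: in WT TAMs the negative regulators that fell numbered 4 to 7 and the target genes that fell 3 to 8, and in KO TAMs the trafficking genes that rose numbered 2 to 6 and the target genes that rose 2 to 6. With the compared groups fitted alone, the calls given below for Ctsl, Map3k8, Ticam1 and Zc3h12a in KO TAMs and for Ticam2, Syk, Il10 and Tlr11 between TAM groups were lost (adjusted p = 0.054 to 0.14). Those for Rab7b (adjusted p = 0.082), Fos and Nfkbiz in KO TAMs and for Irf8 in WT TAMs were lost in that fit too.

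Of 8 co-receptor and ligand delivery genes, 2 rose and 0 fell in KO TAMs and 1 rose and 0 fell in WT TAMs. Lbp, the lipopolysaccharide binding protein, rose in both. The KO rise was 1.48 ± 0.28 (adjusted p = 0.01, lost without KO macrophage array 3). The WT rise was 0.96 ± 0.28 (adjusted p = 0.048), lost without any 1 of 9 arrays and with the WT groups fitted alone. Neither Cd14 nor Ly96, which present lipopolysaccharide to Tlr4, was called in co-culture, with differences for Cd14 of -0.28 ± 0.14 in KO (adjusted p = 0.32) and -0.43 ± 0.14 in WT (adjusted p = 0.078) and for Ly96 of 0.17 ± 0.11 in KO (adjusted p = 0.46) and -0.22 ± 0.11 in WT (adjusted p = 0.26). Clec7a, the beta-glucan receptor dectin-1, read 9.55, 8.48 and 8.94 in KO TAMs and 6.65, 6.70 and 6.77 in KO macrophages, a rise of 2.29 ± 0.22 (adjusted p = 0.00014), with a WT difference of 0.58 ± 0.22 (adjusted p = 0.12). In KO macrophages it was lower than in WT macrophages by -1.48 ± 0.22 (adjusted p = 0.0014). Ly86, which binds Cd180, was higher in KO than in WT cells, by 0.70 ± 0.08 in TAMs (adjusted p = 0.00035) and by 0.58 ± 0.08 in macrophages (adjusted p = 0.0012).

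Among 15 genes for chaperones, trafficking and receptor cleavage, 5 rose and 0 fell in KO TAMs and 3 rose and 1 fell in WT TAMs. The gene that fell was Unc93b1, the chaperone of the endosomal receptors, at 11.71, 11.89 and 11.92 in KO TAMs, 11.97, 12.02 and 11.98 in KO macrophages, 11.19, 11.39 and 11.20 in WT TAMs and 11.88, 11.87 and 11.86 in WT macrophages. All WT TAM arrays lay below all others. The difference was -0.15 ± 0.09 in KO (adjusted p = 0.40) and -0.61 ± 0.09 in WT (adjusted p = 0.00091), and KO TAMs were higher than WT TAMs by 0.58 ± 0.09 (adjusted p = 0.0012). Ctsl, a cathepsin that cuts endosomal receptors, rose by 0.81 ± 0.15 in KO (adjusted p = 0.0088) and by 0.84 ± 0.15 in WT (adjusted p = 0.0035). Lgmn, the endopeptidase legumain, rose by 0.47 ± 0.08 in KO TAMs (adjusted p = 0.0044), with a WT difference of 0.11 ± 0.08 (adjusted p = 0.47). Rab7b, a GTPase of endosome traffic, rose by 0.68 ± 0.15 in KO (adjusted p = 0.021, up to 0.079 without any 1 KO macrophage array) and by 1.17 ± 0.15 in WT (adjusted p = 0.00057). Nrros, a negative regulator of Toll-like receptors that also acts on oxidase subunits, was higher in KO than in WT cells, by 0.60 ± 0.08 in TAMs (adjusted p = 0.00057) and by 0.67 ± 0.08 in macrophages (adjusted p = 0.0004).

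The adaptors and proximal kinases were the list with most falls per gene in WT TAMs. Of 13 measured genes, 0 rose and 1 fell in KO TAMs, with a median difference of -0.27 and 0 to 3 falls without each array, and 1 rose and 9 fell in WT TAMs, with a median of -0.55. The count of 9 was 6 without any 1 WT macrophage array and 7 without WT TAM 1 or WT TAM 3, and it was 9 again without WT TAM 2 and KO TAM 1. The difference was negative for 11 of the 13 genes in KO and for 11 in WT. The interaction was called for 1 of the 13, Peli1, and that call was lost without any 1 of 10 arrays. The counts of 9 and 1 are thus not a test of a difference between genotypes. Ticam2, which bridges Tlr4 to Ticam1, read 8.71, 9.0 and 9.37 in KO TAMs, 9.58, 9.60 and 9.49 in KO macrophages, 7.99, 8.37 and 8.09 in WT TAMs and 9.45, 9.47 and 9.41 in WT macrophages. It fell by 1.29 ± 0.15 in WT TAMs (adjusted p = 0.00026), and the KO difference was -0.53 ± 0.15 (adjusted p = 0.053). Tirap, which brings Myd88 to Tlr2 and Tlr4, fell by 0.82 ± 0.14 in WT TAMs (adjusted p = 0.0024), with a KO difference of -0.36 ± 0.14 (adjusted p = 0.16). Myd88, the shared adaptor, fell by 0.66 ± 0.14 (adjusted p = 0.0095) and Ticam1 by 0.66 ± 0.13 (adjusted p = 0.0067). The other genes that fell were Peli1 by 0.85 ± 0.09, Pik3ap1 by 0.52 ± 0.11, Btk by 0.48 ± 0.13, Syk by 0.43 ± 0.11 and Irak2, and the ubiquitin ligase Traf6 rose by 0.53 ± 0.15 (adjusted p = 0.04). The call on Irak2 (-0.92, adjusted p = 0.038) was lost without any 1 of 9 arrays. In KO TAMs Ticam1 fell by 0.51 ± 0.13 (adjusted p = 0.038), which was also lost without any 1 of 9 arrays (adjusted p up to 0.13). Syk, Peli1 and Ticam2 were higher in KO TAMs than in WT TAMs, by 0.50, 0.55 and 0.87.

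**Figure D4:**
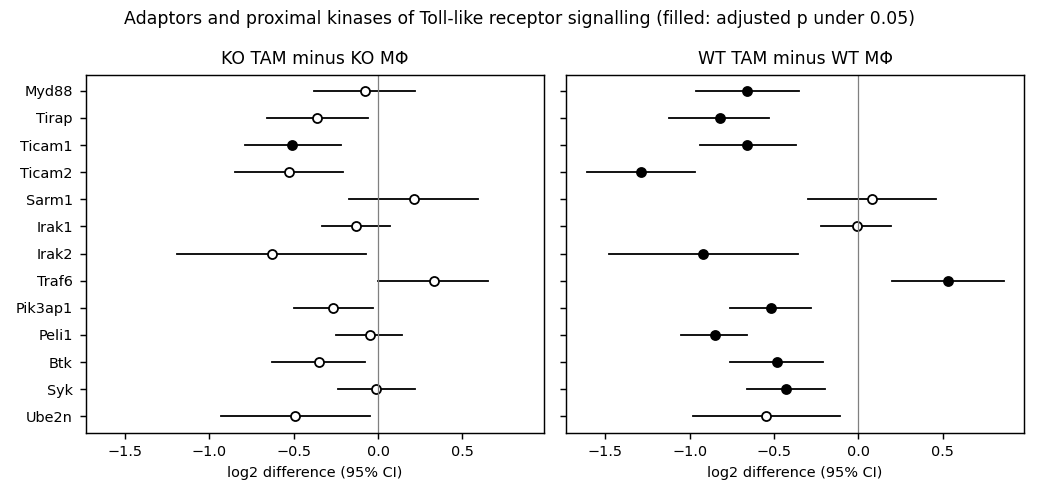
Co-culture differences of the 13 measured adaptors and proximal kinases on the log2 scale with 95% confidence intervals, KO on the left and WT on the right; filled points passed an adjusted p under 0.05. In WT 9 filled points lie left of 0 and 1 lies right of it, and in KO 1 filled point lies left of 0. The interaction was called for 1 of the 13 genes, Peli1.

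Downstream kinases and transcription factors counted 2 higher and 1 lower of 21 in KO TAMs and 2 higher and 6 lower in WT TAMs. Map3k8, a kinase of the NF-kappaB and MAP kinase branch, fell in both, by 0.67 ± 0.12 in KO (adjusted p = 0.0073) and by 1.02 ± 0.12 in WT (adjusted p = 0.00033). Rel fell by 0.82 ± 0.14 and Ikbke by 0.74 ± 0.15 in WT TAMs (adjusted p = 0.0027 and 0.0067), with KO differences of -0.39 ± 0.14 (adjusted p = 0.13) and -0.18 ± 0.15 (adjusted p = 0.58). Fos rose by 0.57 ± 0.14 in KO (adjusted p = 0.033, lost without any 1 of 6 arrays) and by 0.76 ± 0.14 in WT (adjusted p = 0.0044). Irf8, an interferon-regulatory factor of macrophages, rose by 0.54 ± 0.09 in KO TAMs (adjusted p = 0.0043) and by 0.35 ± 0.09 in WT TAMs (adjusted p = 0.023, lost without any 1 of 4 arrays). It was higher in KO than in WT cells, by 0.66 ± 0.09 in TAMs (adjusted p = 0.00071) and by 0.47 ± 0.09 in macrophages (adjusted p = 0.0057), but its genotype calls and the WT one were lost with the mean of its probe sets, at 0.37 in TAMs (adjusted p = 0.052) and 0.15 in macrophages (adjusted p = 0.45). Of 21 negative regulators, 1 rose and 1 fell in KO TAMs, and 3 rose and 7 fell in WT TAMs. Irak3, an inhibitory kinase relative, fell by 1.23 ± 0.21 in WT TAMs (adjusted p = 0.0031), with a KO difference of -0.32 ± 0.21 (adjusted p = 0.46), and Zc3h12a, an RNase that degrades cytokine transcripts, fell by 0.58 ± 0.11 in KO TAMs (adjusted p = 0.01) and by 0.67 ± 0.11 in WT TAMs (adjusted p = 0.0022).

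Of 29 target genes, 3 rose and 1 fell in KO TAMs, and 4 rose and 5 fell in WT TAMs. The chemokine gene Ccl2 read 9.30, 9.44 and 10.16 in KO TAMs, 9.30, 9.14 and 9.16 in KO macrophages, 11.18, 10.90 and 11.22 in WT TAMs and 9.34, 9.39 and 9.46 in WT macrophages. Its WT TAM arrays stood above every other array, and it rose by 1.71 ± 0.18 there (adjusted p = 0.00018), with a KO minus WT difference of -1.47 in TAMs (adjusted p = 0.00043). Ccl7 rose by 1.47 ± 0.21 in KO TAMs (adjusted p = 0.0019) and by 2.62 in WT TAMs (adjusted p = 2.3e-05). Nfkbiz fell by 0.78 ± 0.19 in KO TAMs (adjusted p = 0.032, lost without any 1 of 6 arrays) and by 1.63 ± 0.19 in WT TAMs (adjusted p = 0.0003). Il1b fell by 1.86 ± 0.34 in WT TAMs (adjusted p = 0.0039), with a KO difference of -0.86 ± 0.34 (adjusted p = 0.17). The acute-phase gene Saa3 rose by 2.0 ± 0.26 in KO TAMs (adjusted p = 0.0013), with a WT difference of 0.16 ± 0.26 (adjusted p = 0.79). Saa3 averaged 10.94 in KO macrophages and 12.08 in WT macrophages (-1.14, adjusted p = 0.016, lost without any 1 of 3 arrays). In TAMs it averaged 12.94 in KO and 12.24 in WT. The call on Il10, higher in KO TAMs than in WT TAMs (1.51 ± 0.33, adjusted p = 0.012), was lost without KO TAM 2 (adjusted p = 0.053).

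Of 16 other pattern receptors, 3 rose and 0 fell in KO TAMs and 2 rose and 1 fell in WT TAMs. Trem2, a lipid-binding receptor, and Clec4n, the mouse dectin-2, rose in both. Trem2 rose by 2.91 ± 0.33 in KO (adjusted p = 0.00052) and by 1.87 ± 0.33 in WT (adjusted p = 0.0033). Its mean was 6.97 in KO macrophages and 9.16 in WT macrophages, a KO minus WT difference of -2.19 (adjusted p = 0.0017). In TAMs its mean was 9.88 in KO and 11.02 in WT, a difference of -1.15 (adjusted p = 0.042). That TAM call was lost without any 1 of 10 arrays and with those groups fitted alone. Clec4n rose by 2.52 ± 0.25 in KO (adjusted p = 0.00025) and by 1.59 ± 0.25 in WT (adjusted p = 0.0019). Tlr11 and Tlr12, the other mouse Toll-like receptors, read 4.08 to 5.07 and 3.67 to 4.14 over the 12 arrays. Tlr11 was higher in KO TAMs than in WT TAMs by 0.58 ± 0.12 (adjusted p = 0.009). Its level was low, with a mean of 4.54 over the 12 arrays against a median of 5.34 over all genes.

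**Figure D5:**
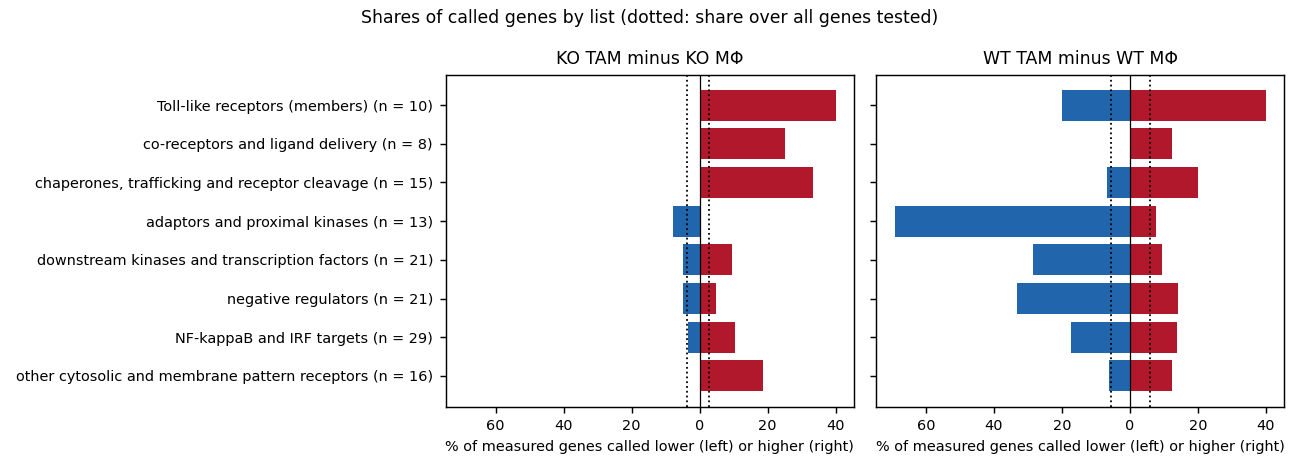
Share of each list's measured genes called higher (right of 0) or lower (left of 0) in TAMs against macrophages, KO on the left and WT on the right, with dotted lines at the shares over all genes. The adaptors and proximal kinases reach furthest left in WT, with 9 of 13 genes, and 1 of 13 in KO. The interaction was called for 1 of these 13 genes.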

How the data were processed

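The 12 arrays of biotin-labelled total RNA were read from 1 table of intensity values, which the authors deposited on a linear scale and made with RMA per the submitters' processing notes; these also name limma, with no version. RMA normalizes arrays to a common distribution, so a change shared by most genes cannot be seen. Array medians were 31.3 to 33.3, and the lowest intensity was 3.57. Log2 was taken with no pseudocount or filter on level. Of 41345 probe sets, 23521 had 1 gene symbol in the platform annotation, 1814 had several and 16010 had none, and only the first kind was used; 23328 matched RefSeq (GRCm38.p6) by Entrez identifier, with 0 symbols changed. For the 1082 genes with several probe sets the one with the highest mean was kept. No genome build of the array annotation is given in the sources used.

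Differences came from limma 3.58.1 in R 4.3.3 (lmFit, eBayes) with 4 group means over all 12 arrays, tested on simulated data first, and Benjamini-Hochberg adjustment over 22180 genes. The median SD was 0.144 in KO TAMs, 0.105 in KO macrophages, 0.14 in WT TAMs and 0.096 in WT macrophages. Groups and replicate numbers came from the titles. Nothing says that replicates were separate cultures or animals, so p-values measure only the spread between these arrays, which may be technical. Members and lists were chosen with earlier results of these data known. Beside the members, the text names, per list and comparison, up to 4 called genes with the largest difference whose arrays do not overlap, chiefly those whose call held without each array; Cd14, Ly96, Myd88, Ticam1, Traf6, Pik3ap1, Btk, Cd79b, Fcrl5 and other marker genes were added after their values were seen. Alternatives changed the probe set rule, normalization, filter, spread model, weights, groups fitted and arrays. The number of arrays limits the precision.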

Additional observations from a re-analysis of the deposited data

Results flagged for a closer look

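Peli1, a ubiquitin ligase that acts next to the Irak kinases, differed between genotypes in its co-culture difference, by 0.80 ± 0.13 (KO minus WT, limma, adjusted p = 0.032 over all genes). It read 9.94, 10.14 and 10.16 in KO TAMs, 10.12, 10.20 and 10.09 in KO macrophages, 9.45, 9.66 and 9.49 in WT TAMs and 10.35, 10.37 and 10.44 in WT macrophages. The co-culture difference was -0.05 ± 0.09 in KO (adjusted p = 0.82) and -0.85 ± 0.09 in WT (adjusted p = 0.00017). The interaction was lost without any 1 of 10 of the 12 arrays, with an adjusted p of up to 0.13.

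Fcgr1, the macrophage marker for the high-affinity IgG receptor, differed in the same way, by 1.16 ± 0.12 (KO minus WT, limma, adjusted p = 0.0037), and was called under all 20 alternatives. It read 11.73, 11.48 and 11.73 in KO TAMs, 10.26, 10.24 and 10.23 in KO macrophages, 11.48, 11.5 and 11.5 in WT TAMs and 11.22, 11.21 and 11.32 in WT macrophages. Its co-culture difference was 1.4 ± 0.08 in KO (adjusted p = 9.2e-06) and 0.25 ± 0.08 in WT (adjusted p = 0.087).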

How the results depend on the processing

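Of the 18 called pairs of receptor gene and comparison, all 18 kept their direction under each alternative, 7 stayed called under every one and 11 were lost under at least 1. The 7 were Tlr1, Tlr3, Tlr4, Tlr7 and Tlr13 in WT TAMs, Tlr3 in KO TAMs and Tlr7 between macrophages. The number of receptor genes called in KO TAMs against KO macrophages, 4, was 1 with the compared groups fitted alone and 2 to 6 without each array in turn. In KO against WT macrophages, 1 became 2 with arrays centred on their medians, 3 without genes under the median level, 4 with array weights, 6 with the compared groups alone, 4 without WT TAM 2 and KO TAM 1, and 1 to 3 without each array. In KO TAMs against WT TAMs, 7 became 0 with the compared groups alone and 4 to 6 without each array; in WT TAMs 6 became 5 to 7. The interaction, at 0, became 2 with array weights, 4 without WT TAM 2 and KO TAM 1, and 0 to 2 without each array. Fitting the compared groups alone used fewer arrays and took the spread from those groups only. In that fit the calls fell between TAM groups and rose between macrophage groups. The median SD over genes was 0.144 in KO TAMs and 0.14 in WT TAMs, against 0.105 in KO macrophages and 0.096 in WT macrophages. The cause of these shifts was not tested.

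The values that changed sign were all uncalled. In KO TAMs against KO macrophages, Tlr6 was -0.14 with array weights, -0.09 without WT TAM 2 and KO TAM 1, and -0.09 to 0.16 without each array; Tlr9 was 0.01 without those 2 arrays and -0.76 to 0.01 without each array; Tlr2 was -0.08 to 0.05 without each array and -0.1 with array weights. Tlr5 in KO against WT macrophages was 0.01 after quantile normalization again and -0.18 to 0.06 without each array. Tlr4 in KO TAMs against WT TAMs was -0.16 with array weights, -0.23 without WT TAM 2 and KO TAM 1, and -0.12 to 0.11 without each array.

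Over all genes, the calls in KO TAMs against KO macrophages (1449) were 505 with the compared groups alone, 2705 with array weights and 611 to 1939 without each array. In WT TAMs against WT macrophages (2561) they were 3976 with array weights, 4049 without WT TAM 2 and KO TAM 1 and 1475 to 3393 without each array. In KO TAMs against WT TAMs (2710) they were 638 with the compared groups alone, 4725 with array weights, 4480 without both arrays and 1749 to 3710 without each array. In KO against WT macrophages (2512) they were 4716 with the compared groups alone, 4923 with array weights, 4558 without both arrays and 1403 to 3455 without each array. The interaction (43) gave 100 without low genes, 99 with an intensity trend, 761 with array weights, 1496 without both arrays and 14 to 444 without each array. With the replicate number as a block, the receptor genes called were 3 in KO TAMs against KO macrophages (1326 of all genes), 7 in WT TAMs against WT macrophages (2423), 6 in KO TAMs against WT TAMs (2564), 1 in KO against WT macrophages (2311) and 0 for the interaction (26). Same-numbered arrays deviated from their group means with correlations of -0.056 to 0.271 over 18 pairs. Of 12 arrays, 4 correlated best with their own number. The 2 pairs over 0.1 were WT TAM 1 with KO TAM 1 (0.271) and WT TAM 2 with KO TAM 2 (0.247). Crossed, WT TAM 1 with KO TAM 2 gave -0.284 and WT TAM 2 with KO TAM 1 gave -0.203. The TAM 3 arrays gave 0.033. The main fit did not pair by number, and whether same-numbered TAM arrays shared a batch was not tested. The count of 9 adaptors and proximal kinases that fell in WT TAMs was chosen for repeats after seeing the data, as were the marker genes, and was 6 to 9 over the alternatives.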
